A study of Mus musculus with 6 samples.

Results

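The 9 genes described here encode the molecules with which white blood cells hold on to vessel walls, to each other and to matrix. They are the alpha chain genes Itgam, Itgax, Itgal and Itga4, the beta chain genes Itgb2 and Itgb7, the selectin ligand gene Selplg, and the counter-receptor genes Icam1 and Vcam1. They were picked out by gene symbol, and all 9 were found among the 16199 genes kept from the deposited table. All 9 also had a mean value of at least 1 and entered the 14025 genes tested.

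The RNA was taken from the hearts of mice on day 7 after their left anterior descending coronary artery had been tied, an operation that infarcts the left ventricle. Both groups had the ligation. One group of 3 libraries was wild type and the other group of 3 was labelled as knockdown of ITIH5, a secreted protein that binds hyaluronan. The strain, age and sex of the mice, how and in which cells the knockdown was made, and whether animals were pooled are not stated in the labels used here, and no sham-operated group was analysed here. Whether each library is a mouse of its own is likewise not stated, so the p-values reflect only how these 6 libraries scatter, and that scatter may be technical.

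Integrins are pairs of an alpha and a beta chain that reach the cell surface only together. Itgb2 (CD18) pairs with Itgam (CD11b), the myeloid receptor Mac-1, with Itgax (CD11c), prominent on dendritic cells and many macrophages, and with Itgal (CD11a), the lymphocyte receptor LFA-1. Itga4 (CD49d) pairs with Itgb1 or Itgb7, and these pairs bind VCAM-1 or the gut vessel molecule MAdCAM-1. A white cell leaving the blood first rolls on selectins, which bind PSGL-1, the product of Selplg. It then stops when its integrins are activated and grip ICAM-1 and VCAM-1 on inflamed endothelium. After infarction, neutrophils and then monocytes use these steps to enter the injured muscle.

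The genes lie on 7 chromosomes of the mm10 mouse genome (GENCODE M21). The 3 alpha chain genes that pair with Itgb2 lie on chromosome 7, on the plus strand, with Itgal at chr7:127296260-127335138, Itgam at chr7:128062640-128118491 and Itgax at chr7:128129547-128150657. Only 11.1 kb separates the end of Itgam from the start of Itgax. Itgb2 is at chr10:77530252-77565708 on the plus strand, Itga4 at chr2:79255426-79333123 on the plus strand and Itgb7 at chr15:102215995-102231944 on the minus strand. Selplg is at chr5:113818536-113832644 on the minus strand, Icam1 at chr9:21015985-21028817 on the plus strand and Vcam1 at chr3:116109949-116129688 on the minus strand.

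Promoter sequences are shown for the neighbouring pair Itgam and Itgax, whose differences are given further on, and for Icam1, whose average was the only one of the 9 not lower in the labelled knockdown. RefSeq promoter entries matched 5 of the 9 genes (Itgam, Itgax, Itga4, Itgb7 and Icam1). Each sequence is the 250 bases before the RefSeq start, 5′ to 3′ on the plus strand of GRCm38.p6. They span chr7:128062390-128062639 for Itgam, chr7:128129300-128129549 for Itgax and chr9:21015690-21015939 for Icam1. Capitals mark matches to GAGGAA, the core that the myeloid factor PU.1 binds, and to GGNNNTTCC, an NF-kB-like motif, on either strand.
Itgam: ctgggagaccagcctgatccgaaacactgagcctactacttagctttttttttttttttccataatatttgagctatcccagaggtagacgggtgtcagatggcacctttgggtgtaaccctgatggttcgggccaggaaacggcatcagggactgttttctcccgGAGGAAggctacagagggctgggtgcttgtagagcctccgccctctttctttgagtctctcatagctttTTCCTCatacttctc
Itgax: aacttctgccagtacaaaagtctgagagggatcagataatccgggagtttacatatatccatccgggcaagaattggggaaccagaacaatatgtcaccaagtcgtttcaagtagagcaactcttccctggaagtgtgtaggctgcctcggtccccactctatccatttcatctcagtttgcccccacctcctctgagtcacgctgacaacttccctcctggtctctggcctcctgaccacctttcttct
Icam1: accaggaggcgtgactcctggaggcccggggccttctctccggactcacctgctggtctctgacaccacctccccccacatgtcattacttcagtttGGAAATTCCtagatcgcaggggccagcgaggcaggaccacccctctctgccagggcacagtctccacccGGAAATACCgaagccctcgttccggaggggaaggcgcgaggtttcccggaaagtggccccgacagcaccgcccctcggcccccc
Itgam held GAGGAA 84 bases before its start, and its reverse complement TTCCTC 15 bases before it. Icam1 held GGAAATTCC 153 bases before its start, a match on both strands, and GGAAATACC 84 bases before it, a match on the minus strand. GAGGAA occurred in 23.3%, GGNNNTTCC in 15.7% and TATAAA, the TATA box, in 12.4% of 32851 promoter windows of this length, so the matches are common. No motif searched overlapped another in these windows. None of these letters was found in the Itgax, Itga4 and Itgb7 windows. A match is a run of letters and not a measured binding site.

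The deposited values resemble TPM, a length-corrected share of a library's transcripts, after an adjustment between libraries. On that scale Itgb2 was the most abundant of the 9 in both groups, followed by Vcam1, Selplg, Itgam, Icam1, Itgax, Itgb7, Itga4 and Itgal. Mean wild type levels ran from 91.8 ± 12.9 for Itgb2 to 4.37 ± 0.974 for Itgal (SD, n = 3 here and for all means below). Wild type ranges of neighbours in this order overlapped for Vcam1 with Selplg and for Itgax with Itgb7. In the labelled knockdown group all neighbours overlapped except Icam1 with Itgax and Itgb7 with Itga4. Low values came in steps of about 1 unit, so Itgal, at 2.1 to 6.2 steps, and Itga4, at 3.1 to 8.2 steps, were measured coarsely.

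A few facts about the libraries bear on these genes. Itih5 itself read 9.73, 13.1 and 17.2 in wild type libraries 1 to 3, versus 18.4, 10.5 and 19.96 in labelled knockdown libraries 1 to 3 (log2 difference 0.26, SE 0.27, limma adjusted p = 0.645). The targeted transcript was therefore not lower in the libraries labelled knockdown, and the group is called by its label throughout. Labelled knockdown library 1 stood apart, with a column sum of 1159651 where the others had 901558 to 997296, and with 1077 nonzero values under 0.2, of which no other library had any. It also had the highest heart muscle marker level, a sum of 20074 over 8 genes against 6088 to 10732 elsewhere, so heart muscle RNA was present in every library. The labels name 2 library kits without saying which library each was used for.

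For 8 of the 9 genes the average was lower in the labelled knockdown group. The median log2 difference of the 9 was -0.36, against 0.00 over all genes tested, of which 49.2% had a difference below 0. No gene among the 9 passed an adjusted p of 0.05, and neither did any of the 14025 genes (0.0% called, smallest limma adjusted p 0.296). At an unadjusted limma p of 0.05, Itgam, Itgb2 and Selplg were lower and none was higher, where 6.55% of all genes were lower and 8.29% higher. Itgb2 and Selplg were also the 2 genes whose groups did not overlap, both lower, a pattern that 9.88% of all genes showed, while 12.6% did so in the higher direction.

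**Figure D1:**
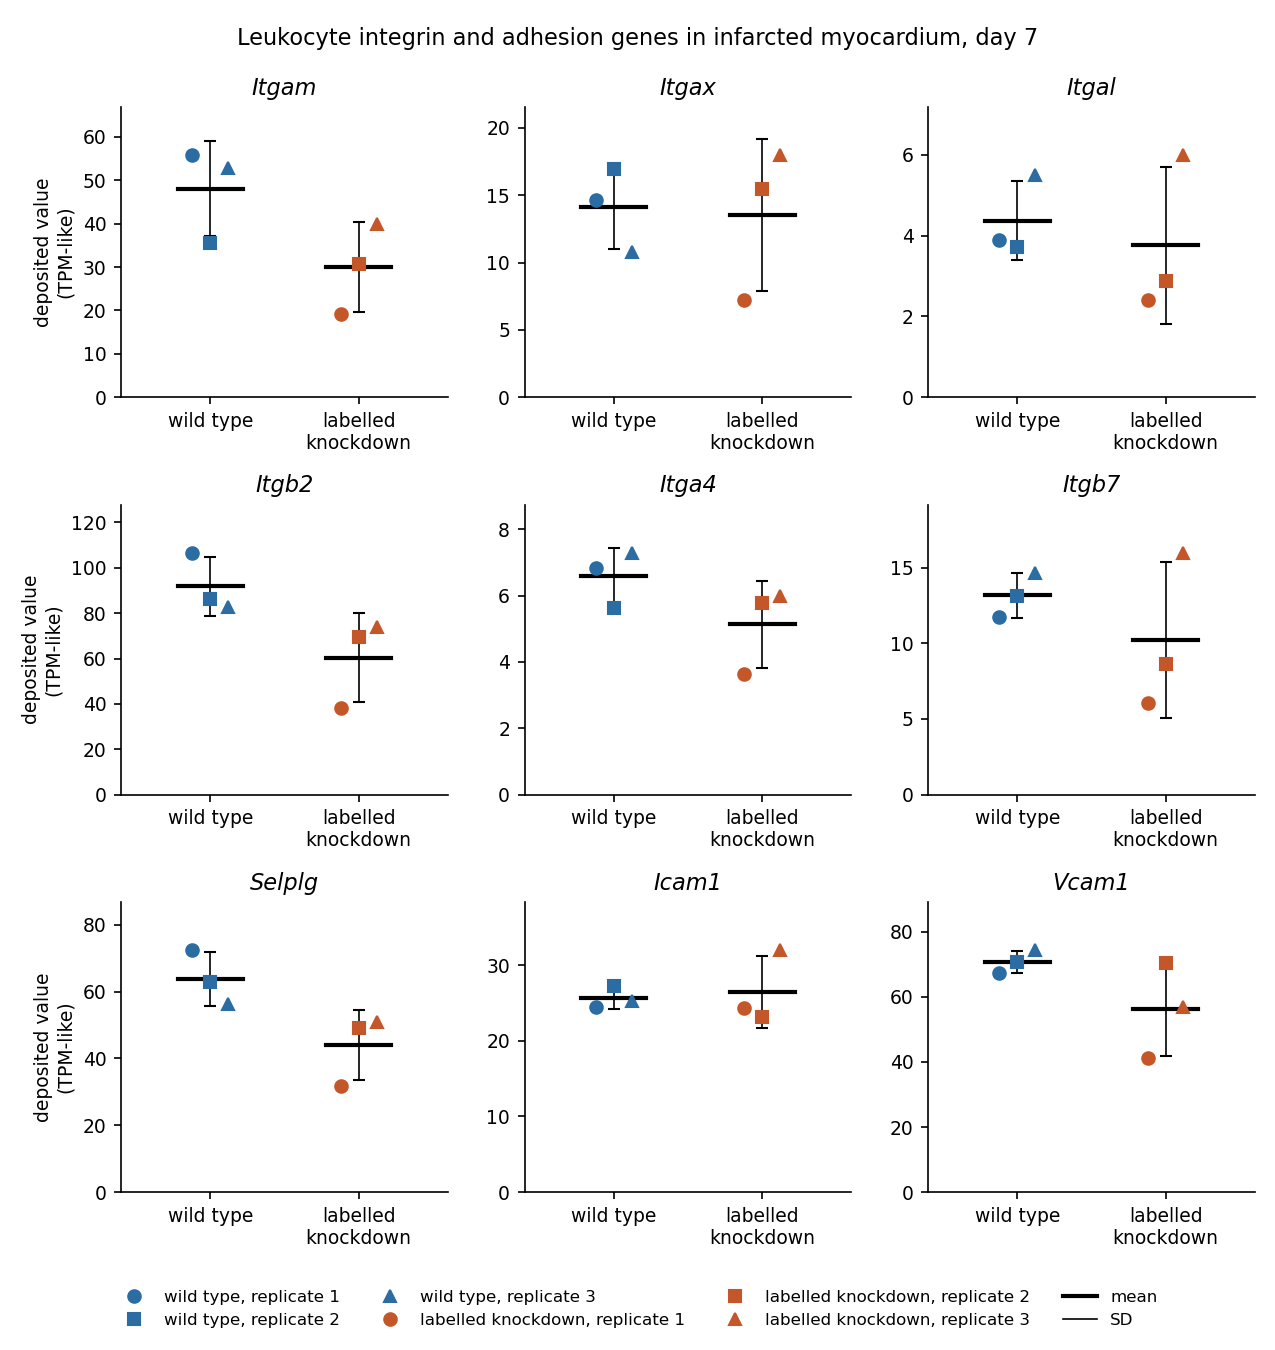
Deposited TPM-like value of each of the 9 genes (y axis, from 0, own scale per gene) in 3 wild type (blue) and 3 labelled knockdown (orange) libraries, with the mean as a thick bar and the SD as a thin bar. Marker shape is the replicate number, and labelled knockdown library 1 (circle) is the lowest point for 8 of the 9 genes.

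Among the beta 2 family, Itgb2, the shared beta chain, read 107, 86.4 and 82.5 in wild type libraries 1 to 3, versus 38.0, 69.4 and 73.8 in labelled knockdown libraries 1 to 3. All 3 wild type values were above all 3 of the other group, and library 1 of the latter was far below its companions. Means were 91.8 ± 12.9 and 60.4 ± 19.6, a log2 difference of -0.64 (SE 0.25, 95% interval -1.24 to -0.05, limma adjusted p = 0.317).

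Itgam, the alpha chain of Mac-1, had wild type values of 55.8, 35.6 and 52.9 and labelled knockdown values of 19.2, 30.8 and 39.9. The groups overlapped through wild type library 2, which was below labelled knockdown library 3. Its log2 difference of -0.70 was the lowest of the 9 (SE 0.28, interval -1.35 to -0.04, adjusted p = 0.322 by limma), with means of 48.1 ± 10.9 and 29.97 ± 10.4.

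Itgax, the alpha chain of CD11c/CD18, had wild type values of 14.6, 16.9 and 10.8 and labelled knockdown values of 7.21, 15.5 and 18.0. The highest and the lowest of the 6 values were both in the labelled knockdown group. The means of 14.1 ± 3.09 and 13.6 ± 5.63 gave a log2 difference of -0.12 (SE 0.32, interval -0.88 to 0.63, limma adjusted p = 0.863). That interval holds both the estimate for Itgb2 and differences above 0.

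Itgal, the alpha chain of LFA-1, was the lowest of the 9, with 3.90, 3.73 and 5.49 in wild type, versus 2.41, 2.87 and 5.99 in labelled knockdown libraries. Library 3 was the highest in each group, and the groups overlapped. Its log2 difference was -0.23 (SE 0.29, interval -0.92 to 0.45, limma adjusted p = 0.694).

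Each alpha chain can be set against its shared partner within a library, which removes the library's scale. Itgam over Itgb2 had wild type values of 0.523, 0.412 and 0.641 and labelled knockdown values of 0.506, 0.444 and 0.541, and the groups overlapped (log2 difference -0.06, exact two-sided permutation p = 0.9). Itgax over Itgb2 was 0.137, 0.196 and 0.131 against 0.190, 0.223 and 0.243. The labelled knockdown ratios averaged 0.219 ± 0.0269 and those of wild type 0.155 ± 0.0358, with wild type library 2 just inside the other group's range (log2 difference 0.52, exact permutation p = 0.2). Itgal over Itgb2 was 0.0366, 0.0432 and 0.0666 against 0.0636, 0.0414 and 0.0811 (log2 difference 0.34, exact permutation p = 0.5). With 3 libraries against 3 the smallest p this test can give is 0.1. These p-values are not adjusted for the 3 ratios.

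**Figure D2:**
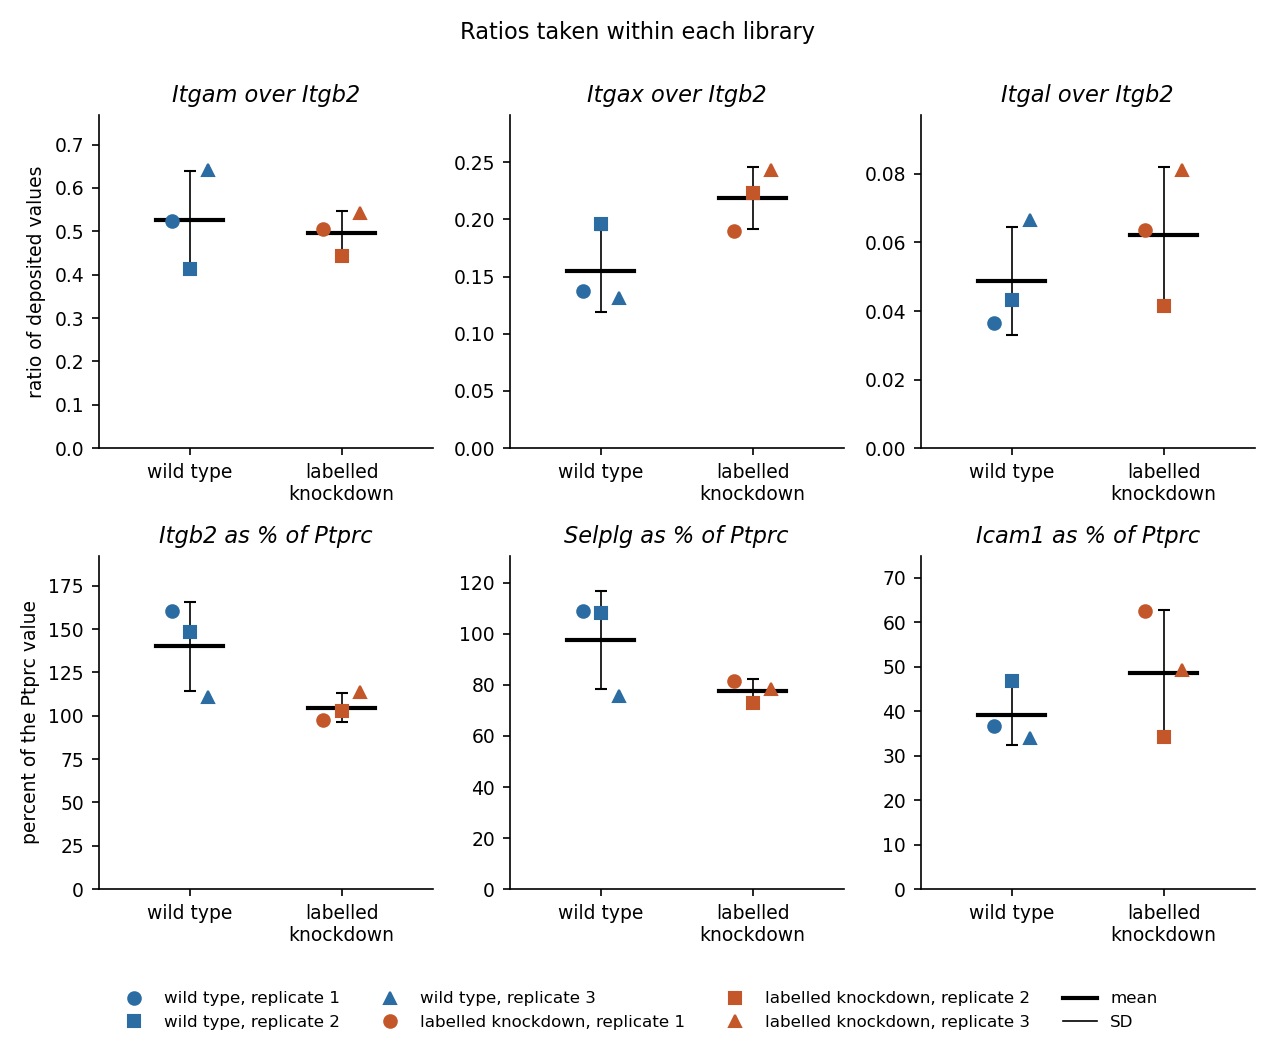
Ratios within each library, y axes from 0: the 3 alpha chains over Itgb2 (top) and Itgb2, Selplg and Icam1 as a percent of the Ptprc value (bottom), for wild type (blue) and labelled knockdown (orange), with means and SD. The Itgax ratio is at or above 0.190 in all labelled knockdown libraries and at or below 0.196 in all wild type libraries.

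The alpha 4 family has the chain Itga4 and 2 possible partners. Itga4 had wild type values of 6.84, 5.62 and 7.29 and labelled knockdown values of 3.62, 5.78 and 5.99 (log2 difference -0.32, SE 0.19, interval -0.78 to 0.13, limma adjusted p = 0.431). Wild type library 2 fell within the other group's range. Itgb7, a beta chain mainly of lymphocytes, read 11.7, 13.1 and 14.6 versus 6.04, 8.65 and 16.0 (log2 difference -0.43, SE 0.30, interval -1.13 to 0.27, adjusted p = 0.489 by limma). Its highest and lowest values were both in the labelled knockdown group. Itgb1, the broadly expressed partner, was far more abundant at 710, 680 and 840 against 627, 690 and 562 (log2 difference -0.25, SE 0.14, limma adjusted p = 0.414). Itgb7 over Itga4 had wild type values of 1.71, 2.34 and 2.01 and labelled knockdown values of 1.67, 1.50 and 2.67, ratios whose groups overlapped; this ratio was added after the values were seen and has no test.

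Selplg, the gene of PSGL-1, had wild type values of 72.3, 63.0 and 56.2 and labelled knockdown values of 31.9, 49.2 and 50.9. Every wild type value was above every labelled knockdown value. The means were 63.8 ± 8.11 and 43.98 ± 10.5 and the log2 difference was -0.55 (SE 0.19, interval -1.002 to -0.10, limma adjusted p = 0.302).

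On the vessel side, Icam1, the counter-receptor of the beta 2 integrins, had wild type values of 24.4, 27.2 and 25.3 and labelled knockdown values of 24.4, 23.1 and 31.9. The means were 25.6 ± 1.45 and 26.5 ± 4.78, and the interval of its log2 difference, -0.28 to 0.35 around 0.03 (SE 0.13, limma adjusted p = 0.916), was the narrowest of the 9. Vcam1, the counter-receptor of alpha 4 integrins, had wild type values of 67.4, 70.5 and 74.2 and labelled knockdown values of 41.3, 70.4 and 56.9. The wild type values were close together and labelled knockdown library 2 reached them. Its log2 difference was -0.36 (SE 0.18, interval -0.79 to 0.07, limma adjusted p = 0.379). Vcam1 over Icam1 had wild type values of 2.76, 2.59 and 2.94 and labelled knockdown values of 1.69, 3.05 and 1.78, again a ratio added after the values were seen and not tested.

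Labelled knockdown library 1 was the lowest of the 6 for 8 of the 9 genes, all but Icam1, and labelled knockdown library 3 was the highest for Itgax, Itgal, Itgb7 and Icam1. Sums over the 9 genes were 364, 322 and 329 in wild type libraries, versus 174, 276 and 299 in labelled knockdown libraries. Without library 1, 7 of 9 log2 differences were below 0, against 49.6% of all genes; Itgal, at -0.03, was among the 7 although its mean of 4.43 was then above the wild type 4.37. The median log2 difference of the 9 was -0.14. Itgb2 was then at -0.35 (SE 0.13, limma adjusted p = 0.471) and Selplg at -0.34 (SE 0.12, adjusted p = 0.464 by limma), both still without overlap, as were 11.9% of all genes in the lower direction. These 2 were also the members at an unadjusted limma p under 0.05, where 3.90% of all genes were lower. Itgam moved to -0.42 (SE 0.22), Vcam1 to -0.16 and Itgax to 0.25. Other libraries also set the counts: leaving out labelled knockdown library 3 left 6 members without overlap against 18.4% of all genes, and leaving out wild type library 2 left 4 against 18.4%.

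**Figure D3:**
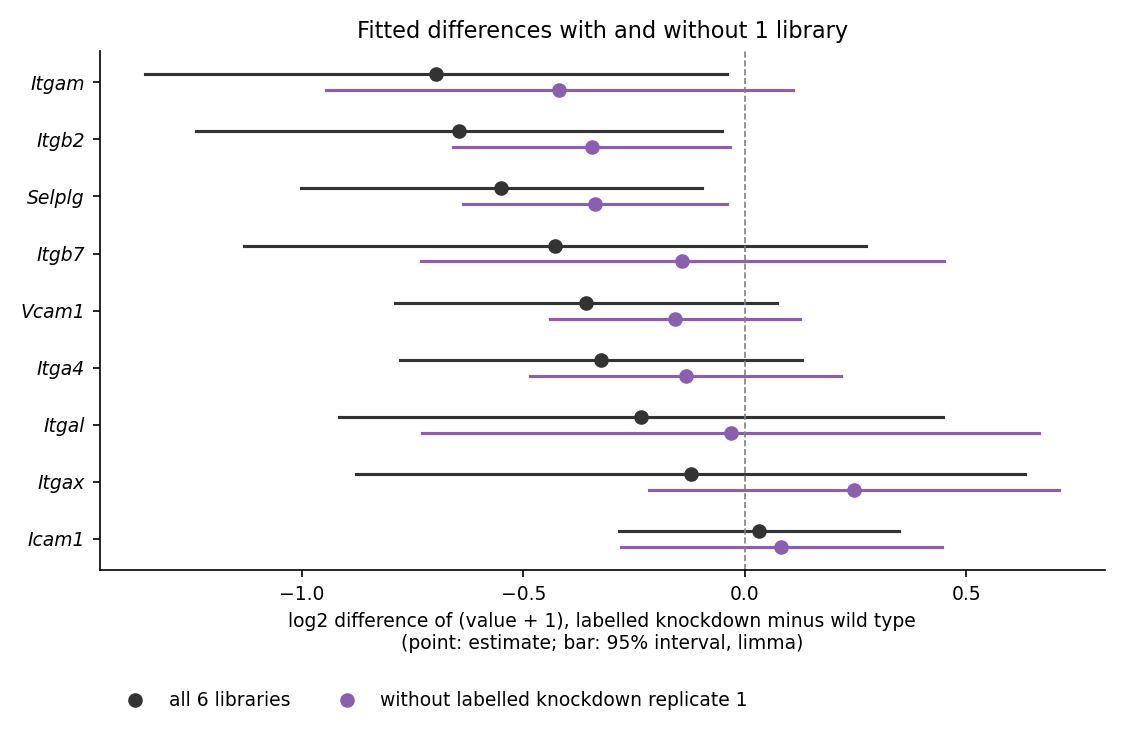
Log2 difference of (value + 1), labelled knockdown minus wild type, for each gene with 95% limma intervals, from all 6 libraries (dark) and without labelled knockdown library 1 (purple). Leaving that library out brings most estimates closer to 0, and Itgax changes from -0.12 to 0.25.

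The 9 genes are carried by several cell types, and several marker lists of those cells also averaged lower. In bulk tissue, fewer cells of a type and less RNA per cell cannot be told apart. All 10 leukocyte core markers were lower on average in the labelled knockdown (median log2 difference -0.50, summed values 2817 to 3481 in wild type and 1513 to 2810 in the other group), and so were all 12 macrophage and monocyte markers (median -0.66, sums 8434 to 11177 and 3912 to 7806). Lyz2, a myeloid lysozyme, read 5899, 4269 and 4553 versus 1877, 4049 and 3001. Neutrophil markers were lower for 6 of 6 tested (median -0.69, sums 36.2 to 122 and 28.4 to 70.9), T and natural killer cell markers for 8 of 9 (median -0.23, sums 50.6 to 74.0 and 31.5 to 80.8) and B and plasma cell markers for 8 of 8 (median -1.33, sums 2071 to 3549 and 552 to 2262). Dendritic cell markers were lower for 2 of 8 only (median 0.25, sums 39.3 to 59.2 and 54.0 to 65.9). Within that list Zbtb46, a transcription factor of dendritic cells and endothelium, read 7.80, 7.46 and 7.96 versus 20.3, 8.62 and 12.98. Cd209a, the most abundant of that list, read 9.71, 16.9 and 11.6 versus 9.53, 19.4 and 17.96, with overlap.

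Markers of other tissue parts differed in direction between lists. Endothelial markers were lower for only 1 of 10 (median 0.39, sums 751 to 791 in wild type and 684 to 1488 in the labelled knockdown), and heart muscle markers for 0 of 8 (median 0.69, sums 6088 to 7630 and 6436 to 20074). Fibroblast markers were lower for 5 of 8 (median -0.18, sums 13509 to 15963 and 9965 to 15100). Mesothelial markers were lower for 5 of 5 (median -1.27). Their sums were 67.2 to 101 in wild type libraries and 17.2, 23.8 and 147 in labelled knockdown libraries 1 to 3. Smooth muscle and pericyte markers were lower for 1 of 6 (median 0.07), megakaryocyte and platelet markers for 2 of 3 (median -0.46) and mast cell markers for 1 of 3 (median 0.27). No marker that had values was at 0 in all 6 libraries. Ly6g, Fcer1a and Gp1bb had no values. Cxcr2, Klrb1c, Ncr1, Cpa3, Tpsb2, Gp9 and Lep were below the level tested with all 6 libraries. No marker with a mean of at least 1 passed the adjusted threshold in any of these lists. Adipocyte markers were lower for 5 of 5 (median -3.05), with sums of 4.77 and 11.7 in labelled knockdown libraries 1 and 2 and of 482 to 1442 in the other 4 libraries. Without labelled knockdown library 1 the medians of most lists were closer to 0. The leukocyte core was then at -0.19 (9 of 10 lower), macrophages and monocytes at -0.37 (12 of 12), neutrophils at -0.19 (5 of 7), T and natural killer cells at 0.04 (4 of 9) and B and plasma cells at -1.05 (8 of 8). Dendritic cells were at 0.37 (2 of 8), endothelium at 0.13 (2 of 10), fibroblasts at -0.086 (5 of 8), heart muscle at 0.28 (1 of 8), adipocytes at -2.01 (5 of 5) and mesothelium at -0.39 (5 of 5). The part of these markers in the differences of the 9 genes was not tested. The fits and ratios that follow do not test it either.

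**Figure D4:**
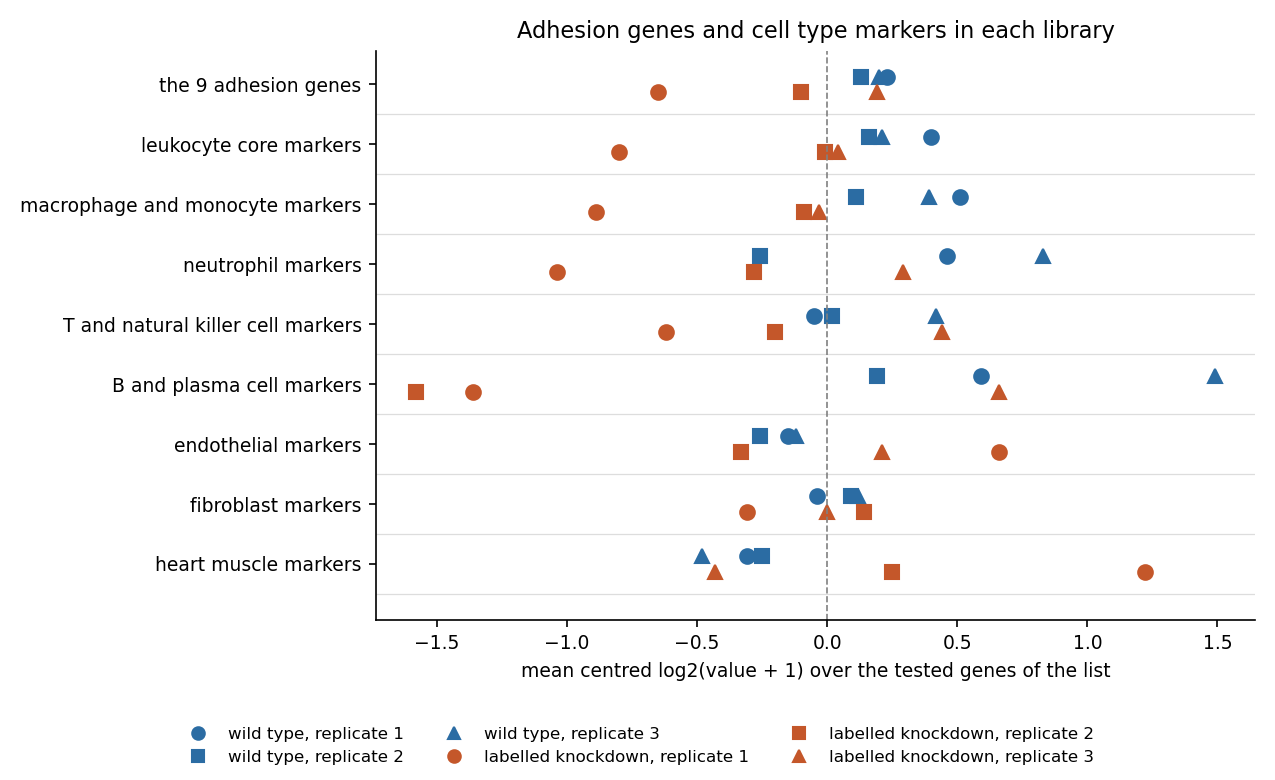
Mean centred log2(value + 1) of the 9 adhesion genes and of cell type marker lists (rows) in each of the 6 libraries (blue wild type, orange labelled knockdown, shape by replicate number). Labelled knockdown library 1 is lowest for the adhesion genes (-0.65) and the leukocyte core (-0.80) and highest for heart muscle (1.22).

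With the heart muscle marker score as a covariate, an alternative chosen after the data were seen, 5 of the 9 genes were below 0 (49.1% of all genes) with a median of -0.05. Set against Ptprc, the pan-leukocyte phosphatase CD45, whose own log2 difference was -0.24 (SE 0.22, limma adjusted p = 0.574), 6 of 9 were lower, where 16.0% of all genes were. Ptprc was the least lowered of the 10 leukocyte core markers, which ran from -0.91 to -0.24. The other markers of that list were therefore also lower relative to it. Without labelled knockdown library 1 the difference of Ptprc itself was 0.00, with means of 66.2 and 66.3. None of the 9 passed the adjusted threshold on that scale, which 1.27% of all genes passed. As a percent of Ptprc, Itgb2 had wild type values of 160, 149 and 111 and labelled knockdown values of 97.3, 103 and 114 (log2 difference -0.40, SE 0.32, limma adjusted p = 0.772). Selplg read 109, 108 and 75.7 versus 81.7, 72.8 and 78.5, and its groups overlapped on this scale. Itgam was at -0.45 (SE 0.32), and Itga4, at 10.3, 9.66 and 9.81 against 9.28, 8.56 and 9.23 percent, was at -0.08 (SE 0.36). Its percentages did not overlap between groups, but its log2(value + 1) differences did. Icam1 read 36.7, 46.8 and 34.0 versus 62.5, 34.2 and 49.2 percent of Ptprc, and was at 0.28 (SE 0.33). Against the mean of the leukocyte core list in place of Ptprc, 3 of 9 were lower (Itgam, Itgb2 and Selplg), where 4.61% of all genes were.

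For the counter-receptors the endothelial gene Pecam1 (CD31) served as the reference. Pecam1 had wild type values of 180, 176 and 187 and labelled knockdown values of 290, 134 and 216, so it was highest in labelled knockdown library 1, where the leukocyte genes were lowest. Vcam1 was also lowest in that library, at 41.3. Which cells its RNA came from was not tested, so a value against Pecam1 is not a value per endothelial cell. Against it, both were lower on average, where 71.8% of all genes were lower and 0.663% passed the adjusted threshold. Vcam1 came to 37.5, 39.98 and 39.6 percent of Pecam1 in wild type, versus 14.3, 52.7 and 26.4 percent in labelled knockdown libraries (log2 difference -0.52, SE 0.41, limma adjusted p = 0.988). Icam1 was at -0.13 (SE 0.40). Without labelled knockdown library 1 Vcam1 was at -0.064 and Icam1 at 0.18, with 31.3% of all genes lower. Without labelled knockdown library 2 Vcam1 was at -0.997 (SE 0.27, limma adjusted p = 0.0974), so the size of its difference from Pecam1 rests on single libraries. Rescaling the 6 columns to 1 sum moved the median of all genes to -0.13, put 67.7% of them and all 9 adhesion genes below 0, and put Icam1 at -0.11.

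Other genes of the adhesion cascade were read from lists written down with earlier results of these data known. Of the 10 other integrin chains tested, 6 were lower (median -0.05). Itgb3, the beta chain of platelets and some macrophages, had wild type values of 12.7, 14.1 and 15.5 and labelled knockdown values of 7.19, 9.61 and 10.98, without overlap (log2 difference -0.57, SE 0.16, limma adjusted p = 0.296). Of 14 selectins and ligand-building genes, 11 were lower (median -0.25). B4galt1, a galactosyltransferase, read 177, 147 and 166 versus 102, 134 and 129, and Glg1, a ligand of E-selectin, read 45.0, 37.6 and 53.6 versus 32.8, 33.6 and 30.9. Neither pair of groups overlapped.

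Of the 14 other counter-receptors and junction molecules only 5 were lower, with a median of 0.17. Spp1, which encodes osteopontin, a ligand of alpha 4 and other integrins, read 2296, 1444 and 1530 versus 417, 1161 and 995 (log2 difference -1.13, SE 0.40, limma adjusted p = 0.302). The endothelial junction gene Esam, at 122, 136 and 121 against 229, 112 and 189, was higher on average with overlap. Of 24 genes for integrin activation and signalling, 20 were lower (median -0.39). Plcg2, a phospholipase below these receptors, read 21.5, 18.8 and 22.7 versus 11.9, 17.3 and 16.0. Rasgrp2, a Rap1 exchange factor known from platelets, read 6.81, 7.45 and 6.11 versus 21.4, 7.65 and 14.97, without overlap (log2 difference 0.91, SE 0.32, limma adjusted p = 0.302). Labelled knockdown library 2 was above wild type library 2 by less than the step of low values, which was 0.959 in the former.

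Icam1 and Vcam1 are textbook targets of NF-kB, and 14 of 16 other genes of an NF-kB list were lower on average (median -0.17). The list holds inducible genes and also Il1r1 and Tnfrsf1a, receptors that feed into NF-kB. Ccl2, the monocyte chemoattractant, had wild type values of 41.1, 42.4 and 52.1 and labelled knockdown values of 19.1, 21.1 and 24.9, without overlap (log2 difference -1.02, SE 0.14, limma adjusted p = 0.296). Genes named from these 5 lists were picked for the smallest limma p in their list, which favours groups without overlap. Lower without overlap were 1 of 10 integrin chains, 5 of 14 selectins and ligand-building genes and 1 of 14 counter-receptors. So were 4 of 24 integrin activation genes and 2 of 16 genes of the NF-kB list, against 9.88% of all genes. Higher without overlap were only 2 integrin activation genes, against 12.6% of all genes. No gene of these 5 lists passed the adjusted threshold. Without labelled knockdown library 1 the list medians were -0.061 for integrin chains, -0.18 for selectins and ligand-building genes, 0.0086 for counter-receptors, -0.19 for integrin activation and -0.10 for the NF-kB list. Itgad, Icam4, Madcam1, Cd99, Fga, Fgb and Fgg had no row in the table used here, and Fut7 was below the level tested.

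**Figure D5:**
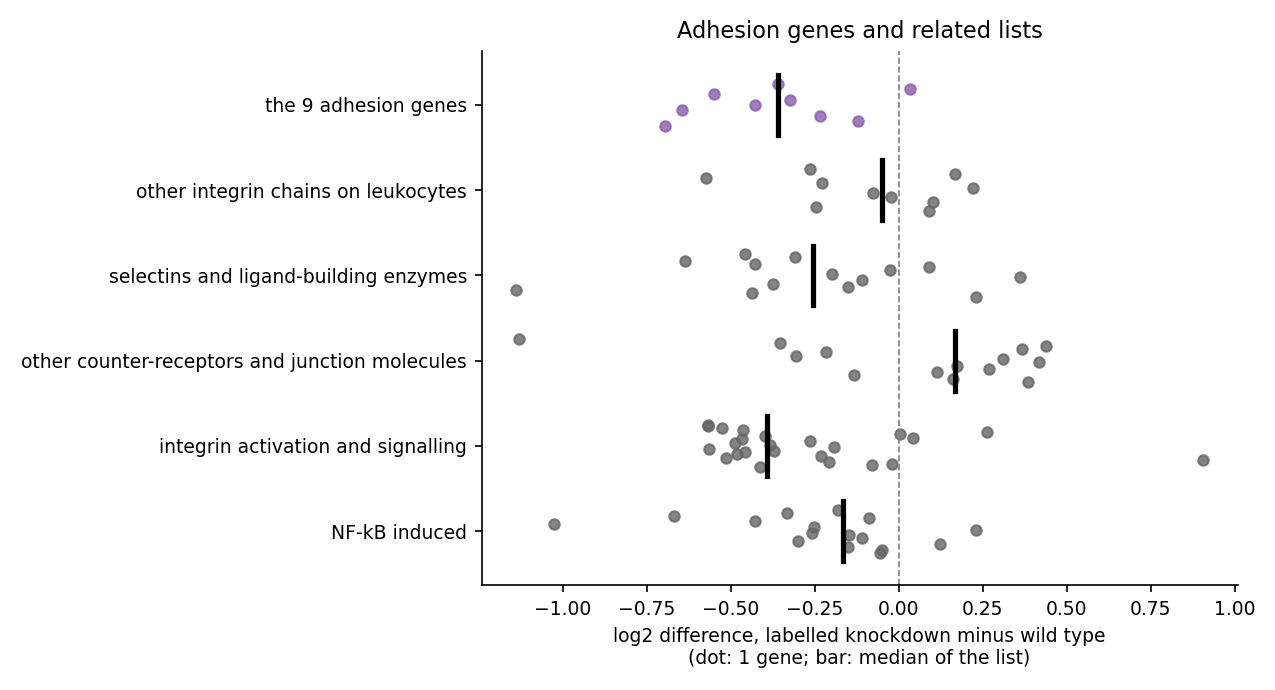
Log2 difference, labelled knockdown minus wild type, of each tested gene (dots) in the 9 adhesion genes and 5 related lists, with each list's median as a bar. Medians run from -0.39 for integrin activation to 0.17 for counter-receptors, and the adhesion genes are at -0.36.

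Over the 6 libraries, the genes most like Itgb2 among 10902 with a mean of at least 5 were Nfam1, Spcs2, Cotl1, Gpx1 and Stard3nl, with Pearson r on the log2 scale from 0.996 to 0.9987. Among the 9, Selplg was closest to Itgb2 (r = 0.9919, rank 21), then Itgam (0.9163) and Itga4 (0.9075), with Icam1 at 0.1489. The genes most like Vcam1 were Sparc, Rnf19b, Cd302, Mcoln2 and Ass1 (r from 0.9877 to 0.9969), and Icam1 was at -0.08633. All 6 points are shared by every gene, labelled knockdown library 1 is the lowest for 8 of the 9 genes, and these values describe the libraries without a test.

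Reads can be shared between some of these genes and others. Itgam overlaps the gene model Gm49368 on the same strand, and 66.3% of the 5128 stretches of 50 bases in its transcripts also occur in other genes, mainly that one, so its level is uncertain where reads were split. Itgax shares 8.02% of such stretches, mainly with Itgad. Itga4, Icam1 and Vcam1 overlap antisense gene models, and whether counting used strand is not stated in the labels. Cerkl, antisense to Itga4, was at about 1 step, from 0.889 to 1.16, in every library.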

How the data were processed

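Poly(A)-enriched libraries of infarcted mouse myocardium, 3 wild type and 3 labelled ITIH5 knockdown, were compared. The authors deposited 1 table of 16205 rows, described as TPM, whose values are an adjusted score: columns sum to different totals and low values lie at multiples of a step of 0.889 to 1.163. The planned design assumed TPM, and the same test was kept for these scores. The build named is mm10, per the submitters' notes on processing; aligner, quantifier and adjustment: not given in the sources used here. Depth is unknown.

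Where a symbol occurred more than once, only its most abundant row was used (6 rows left out). Genes with a mean of at least 1 were fitted on log2(value + 1) with limma 3.58.1 in R 4.3.3 (intensity trend, two-sided, Benjamini-Hochberg over 14025 genes), which understates changes of low genes; the code was tested on simulated data. Ratios used exact permutation tests. Ptprc- and Pecam1-relative fits subtract the reference's log2 value, so its error enters every gene.

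The 9 genes, the lists and the rule for named genes (all 9; up to 3 per pathway list with the smallest p; the 2 most abundant markers per list; the 5 most alike to Itgb2 and Vcam1) were chosen with earlier results of these data known. Alternatives covered pseudocount, filters, scaling, variance shrinkage, covariates, a replicate block and leaving out each library.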

Additional observations from a re-analysis of the deposited data

How the results depend on the processing

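With 3 libraries a group, rounding to steps and unknown depth, precision is limited, and differences of low genes such as Itgal are coarse. None of the 9 genes passed the adjusted threshold in any alternative run not taken relative to Ptprc or Pecam1 (19, or 18 for Itgal). The lowest limma adjusted p in these runs was 0.181 (Itgb7). Relative to Pecam1, Vcam1 reached a limma adjusted p of 0.0974 without labelled knockdown library 2. Itgam, Itgb2, Itga4, Selplg and Vcam1 stayed below 0 in all alternative runs not taken relative to Ptprc or Pecam1. Over values of single genes, with those relative to Ptprc and Pecam1 included, 259 kept direction and side of the threshold under an alternative and 21 changed sign. The causes of the changes below were not tested.

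Leaving out each library in turn gave 0 to 13 genes past the adjusted threshold in the lower direction. There were 13 without labelled knockdown library 3 and 2 without wild type library 2. At unadjusted limma p under 0.05, 655 to 1383 genes were higher and 334 to 1230 lower. From 7 to 9 members had a difference below 0, and 2 to 6 were without overlap. The 6 were found without labelled knockdown library 3, when 18.4% of all genes were lower without overlap, against 9.88% with all 6 libraries. Over the runs that left out a library, Itgax ranged from -0.36 to 0.25 and Icam1 from -0.11 to 0.12. The other 7 ran from their lowest without labelled knockdown library 3 (library 2 for Vcam1) to their highest without library 1: Itgam -0.93 to -0.42, Itgal -0.55 to -0.03, Itgb2 -0.82 to -0.35, Itgb7 -0.78 to -0.14, Itga4 -0.43 to -0.13, Selplg -0.67 to -0.34 and Vcam1 -0.53 to -0.16. Relative to Ptprc, 5 to 8 members were lower, with Itgax at -0.13 to 0.35, Itgal at -0.19 to 0.26 and Itgb7 at -0.42 to 0.015. Of Icam1 and Vcam1, 1 to 2 were lower relative to Pecam1. On that scale Icam1 was at -0.34 to 0.18, and Vcam1 at -0.997 (without labelled knockdown library 2) to -0.064 (without library 1). Itgam over Itgb2 ranged from -0.23 to 0.093, Itgax over Itgb2 from 0.41 to 0.70 and Itgal over Itgb2 from 0.12 (without labelled knockdown library 3) to 0.61 (without library 2).

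Rescaled columns gave 458 genes higher and 1398 lower at unadjusted limma p under 0.05, with Icam1 at -0.11. Ptprc as a covariate left 501 genes lower at that threshold and put Itgax at 0.13. The heart muscle covariate, added after seeing the data, left 704 genes higher and 289 lower at that threshold. With this covariate 5 members, and 49.1% of all genes, had a difference below 0. It put Itgax at 0.35, Itgal at 0.20 and Itgb7 at 0.091. Relative to Ptprc, Itgal was at -0.055 with a pseudocount of 0.1 and Itga4 at 0.028 with 5. Against the leukocyte core, 3 members were lower, with Itgb7 at 0.084, Itga4 at 0.19 and Vcam1 at 0.15. Robust shrinkage gave 0 adjusted calls.

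Whether replicate numbers pair the libraries is not stated in the labels used here. Between the groups, same-number correlations were 0.056, 0.061 and 0.143, and different-number ones ran from -0.109 to 0.060. These few small values do not settle it. A replicate block gave 0 adjusted calls, with 1039 genes higher and 764 lower at unadjusted limma p under 0.05, and 8 members below 0. The block leaves the values as they are, so 2 members were again lower without overlap, as were 9.88% of all genes.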
